A study of Mus musculus with 16 samples.

Results

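The immunoglobulin constant genes and the J chain gene were followed in inflamed and control hamstring muscle of mice. The list of symbols had 10 genes, and 9 of the 10 had a row among the 26382 genes of the deposited normalized counts: *Ighm*, *Ighd*, *Ighg1*, *Ighg2b*, *Ighg2c*, *Ighg3*, *Igha*, *Igkc* and *Jchain*. *Ighe*, the constant gene of IgE, is not analysed here. Bulk poly(A) RNA had been sequenced from 16 libraries of 9 female C57BL/6 mice, taken 14 days after injection at an age of 8 to 10 weeks.

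The labels gave 4 groups. The HRS group held the left hamstrings of 5 mice, m862 to m866, labelled as injected with recombinant histidyl-tRNA synthetase (HRS, the Jo-1 autoantigen, at 3 to 5 mg/mL). The contralateral PBS group held the right hamstrings of the same 5 mice. The PBS-only group held both hamstrings of 2 control mice, m867 and m868, so that its 4 libraries stand for 2 animals. The HRS-MBP group held 1 library each of m860 and m861, whose titles name a fusion protein with MBP at 2 to 3 mg/mL and whose side is not given. Their treatment label, however, is HRS at 3 to 5 mg/mL, the same as that of the HRS legs, so that HRS-MBP stands as a group of its own only by the titles. For m862 to m866 the titles and treatment labels give HRS to 1 leg and PBS to the other, while the protocol text describes injection of both sides; the titles and treatment labels were followed. A contralateral PBS leg therefore comes from an immunized mouse, and a PBS-only leg from a mouse that never received the antigen.

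An antibody is built of heavy and light chains, and the heavy chain constant gene in use sets its class. *Ighm* encodes the heavy chain of IgM and *Ighd* that of IgD, which are the classes of naive B cells. During class switching the DNA is cut and joined so that a downstream constant gene, such as an IgG or IgA gene, replaces *Ighm*. *Igkc* encodes the constant part of the kappa light chain, the main light chain of the mouse. *Jchain* encodes the small protein that joins IgM and IgA units into polymers and is made by antibody-secreting cells. In C57BL/6 mice *Ighg2c* takes the place that *Ighg2a* has in other strains, IFN-γ is known to favour switching to IgG2c, and IL-4 is known to favour switching to IgG1.

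The 7 heavy chain genes lie on the minus strand of chromosome 12, from *Ighm* (chr12:113418558-113422730) and *Ighd* (chr12:113406604-113416324) through *Ighg3*, *Ighg1*, *Ighg2b* and *Ighg2c* to *Igha* (chr12:113254830-113260236). *Igkc* lies on the plus strand of chromosome 6 (chr6:70726435-70726966) and *Jchain* on the minus strand of chromosome 5 (chr5:88519809-88527891). These positions come from the table and fit the GRCm38 build. *Igkc* shares its strand and place with *Gm30211*, which was listed at 0 to 0.823 normalized counts in the 16 libraries.

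The depth implied by the smallest steps between values was 37300000 to 73900000 reads in HRS legs, 24700000 to 72800000 in contralateral legs, 8600000 to 40700000 in PBS-only legs and 37300000 to 39600000 in HRS-MBP libraries. The right leg of m868 was the shallowest library. Skeletal muscle markers were present in every library, with sums of 46690 to 198300 normalized counts in HRS legs and 145800 to 237200 in contralateral legs. The HRS leg of m866 stood apart within its group, with the highest muscle sum, a mitochondrial share of 11.1% (3.41% to 6.29% elsewhere in the group), and the lowest macrophage sum. Some results below are therefore also given without single libraries. In bulk muscle, fewer cells of a type and less RNA per cell cannot be told apart.

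Immunoglobulin RNA was higher in HRS legs than in the opposite leg of the same mouse. *Igkc*, *Jchain* and the 4 IgG genes were 15.6 to 33.4 times higher as fitted on the log2(normalized count + 0.5) scale, *Igha* was 5.25 times higher, and *Ighm*, which all PBS legs already held, was 3.02 times higher. For genes near 0 in PBS legs the size of the fold depends on the amount added before taking logs: over the pseudocounts tried it was 2.43 to 13.3 for *Igha*, 7.85 to 64.8 for *Ighg1*, 10.2 to 57.6 for *Ighg3*, 13.2 to 50.2 for *Ighg2b*, 17.1 to 45.9 for *Ighg2c* and 8.58 to 21.2 for *Jchain*, against 22.8 to 36.2 for *Igkc* and 2.97 to 3.03 for *Ighm*. *Ighd* did not pass the fold threshold. A gene was called at an adjusted p under 0.05 and an absolute log2 fold change above 1, by limma with Benjamini-Hochberg adjustment over 16414 genes. Of the 9 genes tested, 8 were called higher in HRS legs than in contralateral PBS legs, against 16.9% of all genes, and their median log2 fold change was 4.58, against 0.08 over all genes. The counts are a description: *Ighd*, *Ighg1*, *Ighg3* and *Igha* had means under the filter of 0.5 over the 9 PBS libraries and entered the test through their HRS and HRS-MBP values. The limma fit behind the printed p-values does not pair the legs of a mouse. With the mouse as a fixed effect, the fold changes and the 8 calls were the same, but the adjusted p-values were larger. They were 0.00165 for *Ighg1*, 0.00353 for *Igkc*, 0.00377 for *Jchain*, 0.0129 for *Ighm* and 0.0992 for *Ighd* (limma).

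**Figure D1:**
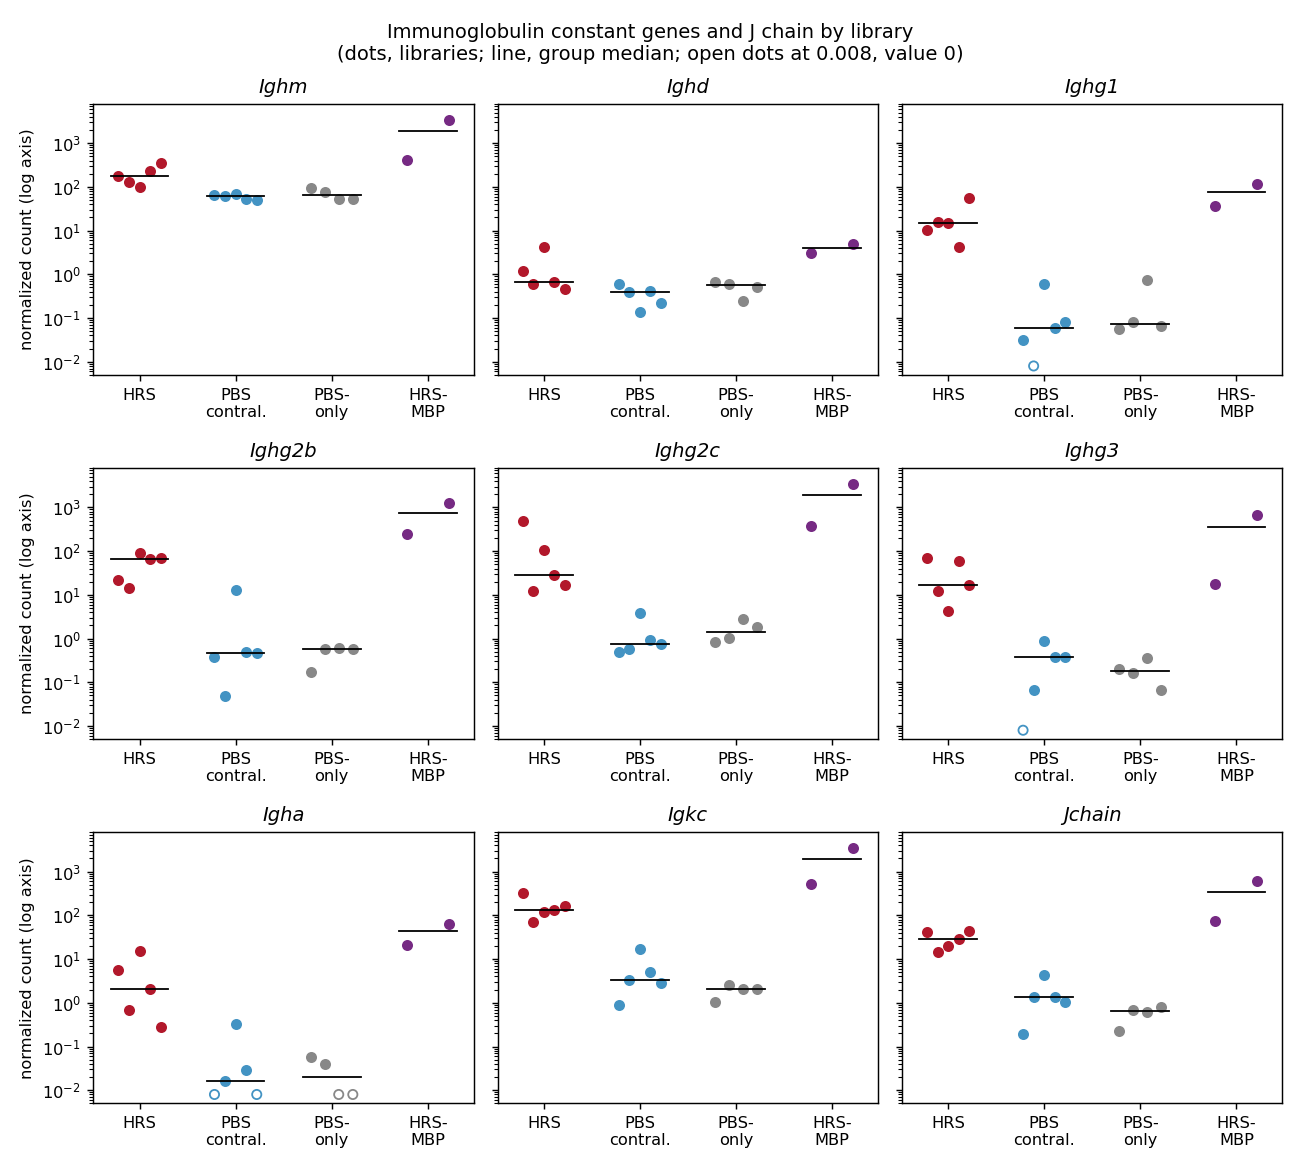
Normalized counts (vertical log axis) of the 9 genes in each library of the 4 groups; each filled dot is 1 library, the line is the group median, and open dots at the bottom stand for values of 0. HRS legs sit above the contralateral legs for 7 of the 9 genes, the groups overlap for *Ighd* and *Igha*, and *Ighm* is the one gene at 51.3 or more in every PBS leg.

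*Ighm*, the IgM heavy chain gene, was at 181.2, 129.1, 99.0, 229.3 and 354 normalized counts in the HRS legs of m862, m863, m864, m865 and m866. In their contralateral legs it was at 64.2, 61.4, 67.1, 53.6 and 51.3. In PBS-only legs it was at 92.0 and 76.5 (m867, right and left) and at 52.3 and 52.6 (m868, right and left). Every HRS leg was above every PBS leg, the nearest pair being m864 at 99.0 and the right leg of m867 at 92.0. The log2 fold change against contralateral legs was 1.59 ± 0.434 (SE; limma, adjusted p = 0.00563, n = 5 and 5), and against PBS-only legs 1.43 ± 0.460 (limma, adjusted p = 0.0146, n = 5 and 4). When the legs of each PBS-only mouse were averaged, the second call was lost (limma, adjusted p = 0.0705).

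*Ighd*, the IgD heavy chain gene, was low throughout, at 1.21, 0.615, 4.30, 0.676 and 0.467 in the HRS legs of m862 to m866. The contralateral legs held 0.609, 0.396, 0.139, 0.412 and 0.215 in the same order. The groups overlapped, and m864 had both the highest HRS leg and the lowest contralateral leg. The log2 fold change was 0.93 ± 0.353 (limma, adjusted p = 0.0322), below the fold threshold, and against PBS-only legs it was 0.69 ± 0.374 (limma, adjusted p = 0.123).

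The IgG genes were low in most PBS legs and higher in HRS legs. *Ighg2c* was at 500.2, 12.5, 105.8, 28.1 and 16.7 in the HRS legs of m862 to m866. In contralateral legs it was at 0.481, 0.577, 3.85, 0.912 and 0.761, and in PBS-only legs at 0.853 to 2.79. All HRS legs were above all PBS legs, although the highest HRS leg exceeded the lowest one 40.1-fold. The log2 fold change was 5.06 ± 0.856 against contralateral legs (limma, adjusted p = 0.000265) and 4.67 ± 0.908 against PBS-only legs (limma, adjusted p = 0.000686). Without the HRS leg of m862 these were 4.24 (limma, adjusted p = 0.000283) and 3.84 (limma, adjusted p = 0.000763).

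*Ighg2b* was at 22.3, 14.1, 92.0, 67.3 and 69.4 in the HRS legs of m862 to m866. The contralateral leg of m864 held 12.8, while those of the other 4 mice held 0.0494 to 0.5 and the PBS-only legs 0.171 to 0.607. The lowest HRS leg was thus only just above the highest contralateral leg. The log2 fold change was 4.89 ± 0.753 against contralateral legs (limma, adjusted p = 0.000122) and 5.48 ± 0.799 against PBS-only legs (limma, adjusted p = 7.29e-05). Without the contralateral leg of m864 the first was 5.69 (limma, adjusted p = 7.11e-06).

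*Ighg1* was at 10.5, 15.8, 14.8, 4.17 and 56.5 in HRS legs and at 0.0320, 0, 0.600, 0.0588 and 0.0808 in the contralateral legs of the same mice. *Ighg3* was at 69.7, 12.5, 4.23, 60.2 and 16.5 in HRS legs and at 0, 0.0659, 0.878, 0.382 and 0.377 in contralateral legs. No PBS leg reached the lowest HRS leg for either gene. Their log2 fold changes were 4.58 ± 0.513 for *Ighg1* (limma, adjusted p = 8.49e-06) and 4.76 ± 0.821 for *Ighg3* (limma, adjusted p = 0.000307).

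*Igha*, the IgA heavy chain gene, had the widest range of the called genes in HRS legs, the highest leg exceeding the lowest 53.4-fold. It was at 5.69, 0.691, 15.0, 2.03 and 0.280 in HRS legs and at 0, 0.0165, 0.323, 0.0294 and 0 in the contralateral legs. The HRS leg of m866 lay below the contralateral leg of m864, so the groups overlapped. The log2 fold change was 2.39 ± 0.609 (limma, adjusted p = 0.00383), and 1.80 without the HRS leg of m864 (limma, adjusted p = 0.00651).

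*Igkc*, the kappa light chain gene, was at 328, 69.1, 118.7, 131.7 and 165.3 in HRS legs, and at 0.897, 3.33, 17.0, 5.06 and 2.91 in contralateral legs. *Jchain* was at 42.2, 14.5, 20.1, 28.7 and 43.1 in HRS legs, and at 0.192, 1.37, 4.39, 1.32 and 1.05 in contralateral legs. For both genes the contralateral leg of m864 was the highest PBS leg and still lay below every HRS leg. The log2 fold changes were 5.00 ± 0.600 for *Igkc* (limma, adjusted p = 1.51e-05) and 3.97 ± 0.530 for *Jchain* (limma, adjusted p = 3.67e-05).

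Over the 9 genes, 7 had groups that did not overlap between HRS and contralateral legs, against 18.3% of all genes tested, and 8 between HRS and PBS-only legs, against 26.6%. Against PBS-only legs, 8 of the 9 genes were called higher, against 18.9% of all genes. Over the pseudocounts tried, the log2 fold change against PBS-only legs was 1.31 to 3.96 for *Igha*, 2.93 to 5.69 for *Ighg1*, 3.43 to 6.09 for *Ighg3*, 4.18 to 6.22 for *Ighg2b*, 3.91 to 4.97 for *Ighg2c*, 5.22 to 6.18 for *Igkc* and 3.52 to 5.38 for *Jchain*. The 2 comparisons share the HRS legs. The 8 genes called against contralateral legs were called under all 32 alternatives tried, while *Ighd* was called under 7 of 31.

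**Figure D2:**
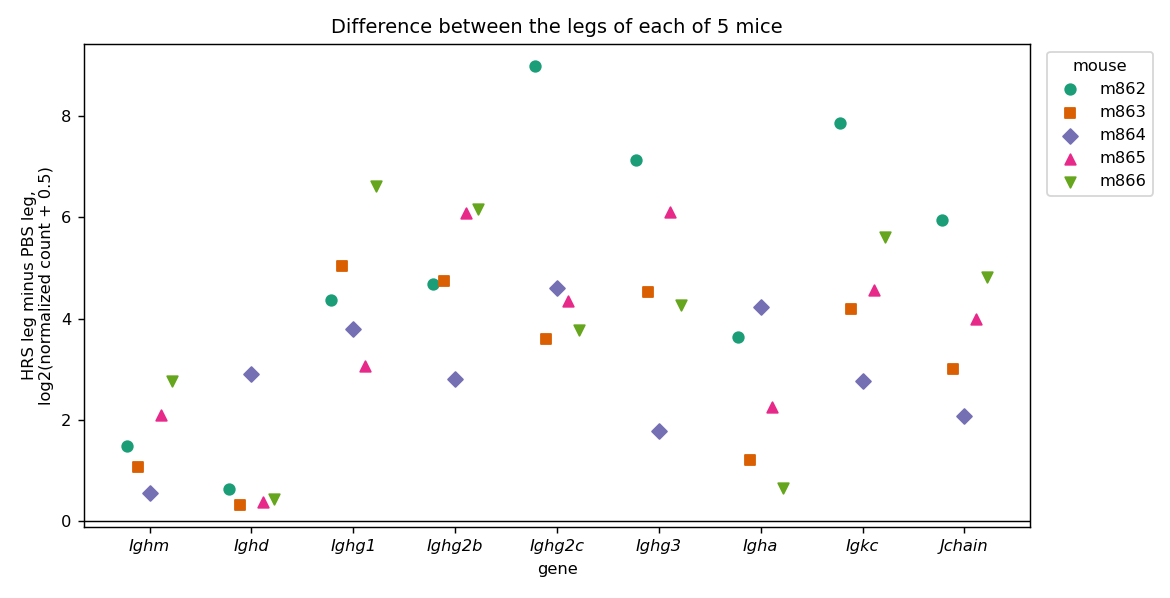
Difference between the HRS leg and the PBS leg of each of 5 mice (vertical axis, log2(normalized count + 0.5)) for the 9 genes, with 1 symbol per mouse. All 45 differences are above 0; m864 has the smallest difference for *Ighm*, *Ighg2b*, *Ighg3*, *Igkc* and *Jchain*, and the largest for *Ighd* and *Igha*.

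The HRS legs did not share a common order. *Ighm*, *Ighg1* and *Jchain* were highest in m866, *Ighg2c*, *Ighg3* and *Igkc* in m862, and *Ighd*, *Ighg2b* and *Igha* in m864. The HRS leg of m864 held the highest sums of mature B cell genes (155.4), T cell markers (131) and macrophage markers (5004) in the group, and also the lowest *Ighm*. The HRS leg of m866 held the lowest sums of the same lists (43.9, 19.6 and 1009), and also the highest *Ighm* and *Jchain*. Whether the number or kind of infiltrating cells has a part in the differences between legs was not tested.

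Per kilobase of the secreted transcript, which makes levels comparable between genes, *Igkc* was the highest in HRS legs at 305.5 ± 185.6 normalized counts per kb (SD, n = 5). *Ighm* followed at 133 ± 67.1, *Ighg2c* at 119 ± 188, *Ighg2b* at 47.6 ± 29.9 and *Ighg3* at 30.2 ± 27.7. *Jchain* was at 21.3 ± 9.22, *Ighg1* at 18.9 ± 19.2, *Igha* at 4.31 ± 5.56 and *Ighd* at 1.81 ± 2.02. No 2 neighbours in this order differed beyond their spread over the legs, although within each HRS leg *Igkc* was above *Ighm* per kb. In contralateral legs *Ighm* came first at 39.9 ± 4.55, apart from *Igkc* at 11 ± 12.1, and in PBS-only legs *Ighm* was at 45.8 ± 13, apart from *Igkc* at 3.63 ± 1.2 (SD, n = 4).

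*Ighm* RNA in PBS muscle was thus not matched by light chain RNA. Per kb, *Igkc* over the sum of the 7 heavy chain genes was 0.794 to 0.940 in the 5 HRS legs, 0.0378 to 0.518 in the 5 contralateral legs and 0.0311 to 0.0995 in the 4 PBS-only legs. The HRS legs stood close together and above every PBS leg, and the highest PBS leg was the contralateral leg of m864. *Ighm* made up 18.1% to 62.6% of heavy chain RNA per kb in HRS legs, 72.8% to 97.3% in contralateral legs and 88.9% to 96.8% in PBS-only legs. The share of the 4 IgG genes together was 81.0%, 36.4%, 69.6%, 48.2% and 37.9% in the HRS legs of m862 to m866. In contralateral legs it was 26.4% in m864 and 1.48% to 4.40% in the other 4 mice. Shares per kb rest on 1 transcript length per gene and cover no error beyond the spread between libraries.

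**Figure D3:**
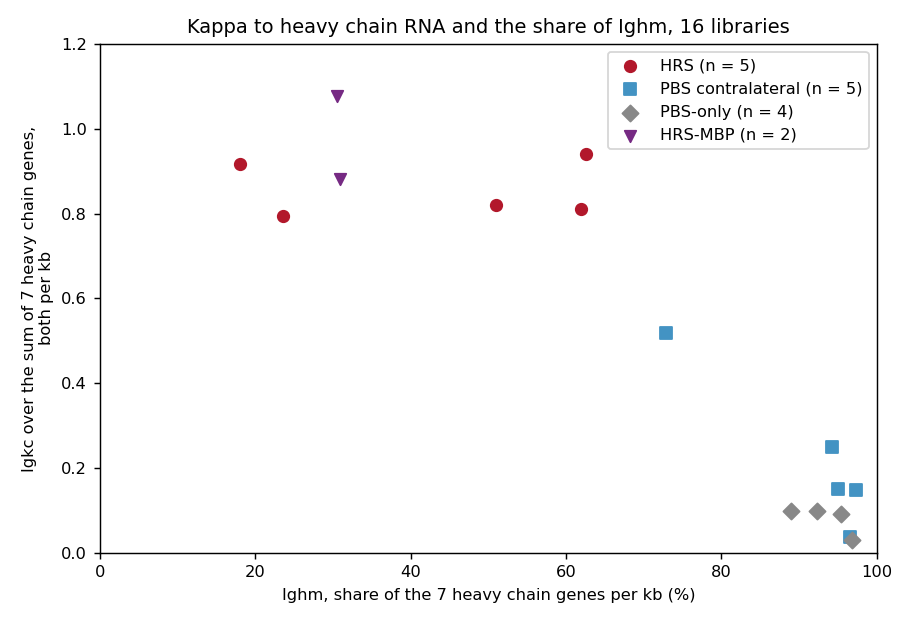
*Igkc* over the sum of the 7 heavy chain genes, both per kb (vertical axis), against the share of *Ighm* in the heavy chain genes per kb (horizontal axis, %), with 1 symbol per library for 16 libraries. The HRS and HRS-MBP libraries lie above 0.79 on the vertical axis, and the PBS legs lie at or below 0.518 with *Ighm* shares of 72.8% or more.

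The ratios of isotypes to *Ighm* were tested with an exact permutation test, two-sided, on log2 ratios with 0.1 normalized counts added to both genes, for 8 ratios in each comparison. Against contralateral legs, 5 of the 8 had an unadjusted p under 0.05. *Ighg1*/*Ighm* was higher by 4.62 in HRS legs (exact p = 0.00794, adjusted over 8 ratios 0.0212), which is the smallest p that 5 against 5 allows. *Ighg3*/*Ighm* was higher by 4.39 (exact p = 0.00794), *Ighg2b*/*Ighm* by 4.13 (exact p = 0.0238), *Ighg2c*/*Ighm* by 3.96 (exact p = 0.0159) and *Jchain*/*Ighm* by 2.84 (exact p = 0.00794). These sizes depend on the settings, the amount added among them. Over the alternatives tried, the difference was 2.98 to 5.74 for *Ighg1*/*Ighm*, 3.17 to 5.16 for *Ighg3*/*Ighm* and 3.3 to 5.09 for *Ighg2b*/*Ighm*. It was 3.13 to 4.6 for *Ighg2c*/*Ighm* and 2.29 to 3.26 for *Jchain*/*Ighm*. For *Igha*/*Ighm* the difference was 2.35 (exact p = 0.111), and the call depended on the setting: it was 3.83 with 0.02 added (exact p = 0.0317), 0.799 with 0.5 added (exact p = 0.532) and 3.23 without the HRS leg of m866 (exact p = 0.0317). With the legs paired within the 5 mice, no ratio can pass, since the smallest p of an exact sign-flip test is 0.0625, and all 5 of these ratios reached it.

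Against PBS-only legs the differences were 4.41 for *Ighg1*/*Ighm*, 4.85 for *Ighg2b*/*Ighm*, 4.78 for *Ighg3*/*Ighm* and 4 for *Jchain*/*Ighm*, each at an exact permutation p of 0.0159, the smallest that 5 against 4 allows. This test treats the 4 legs of 2 mice as separate; with the legs averaged per mouse, 0 of 8 ratios passed, since an exact permutation p cannot then go below 0.0952. Over the alternatives tried, the differences were 3 to 5.14 for *Ighg1*/*Ighm*, 4.05 to 5.12 for *Ighg2b*/*Ighm*, 3.52 to 5.32 for *Ighg3*/*Ighm* and 3.29 to 4.27 for *Jchain*/*Ighm*. *Ighg2c*/*Ighm* was higher by 3.56 (exact p = 0.0317, adjusted 0.0508), and its p was above 0.05 when any 1 of 7 libraries was left out, that is any HRS leg but m866 or any PBS-only leg but the right one of m868. *Igha*/*Ighm* was higher by 2.76 (exact p = 0.0794), by 4.37 with 0.02 added (exact p = 0.0159), by 1.06 with 0.5 added (exact p = 0.381) and by 3.64 without the HRS leg of m866 (exact p = 0.0286). Within IgG no ratio passed the test. *Ighg2c*/*Ighg1* differed by -0.66 between HRS and contralateral legs (exact p = 0.698) and *Ighg2b*/*Ighg1* by -0.49 (exact p = 0.603). Against PBS-only legs *Ighg2c*/*Ighg1* differed by -0.851 (exact p = 0.603) and *Ighg2b*/*Ighg1* by 0.441 (exact p = 0.667). Among HRS legs *Ighg2c*/*Ighg1* ran from -1.75 in m866 to 5.56 in m862 on the log2 scale, while all 9 PBS legs lay between 1.80 and 3.54, on few reads. In most PBS legs *Ighg1* was below the 0.1 added, so the narrow range of their ratios is set in part by that amount.

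The IgG subclasses are told apart by sequence. The hinge joins the antigen-binding arms to the stem of the antibody, and its cysteines link the heavy chains. The 4 hinge exons are shown as a short stretch in which the subclasses differ in length and in cysteine codons. They are exon 2 of each gene, read 5′ to 3′ on the minus strand of GRCm38 from GENCODE M21, with in-frame cysteine codons in capitals. *Ighg1* (chr12:113329844-113329882) has 39 bases and 4 such codons, *Ighg2b* (chr12:113307261-113307326) 66 bases and 4, *Ighg2c* (chr12:113288263-113288325) 63 bases and 3, and *Ighg3* (chr12:113360529-113360576) 48 bases and 1.
Ighg1: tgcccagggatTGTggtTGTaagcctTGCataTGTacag
Ighg2b: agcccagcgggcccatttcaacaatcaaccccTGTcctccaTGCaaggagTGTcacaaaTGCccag
Ighg2c: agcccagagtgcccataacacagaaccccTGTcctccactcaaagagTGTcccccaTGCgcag
Ighg3: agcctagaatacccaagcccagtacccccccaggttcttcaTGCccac

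The secreted transcripts of *Ighg2b* and *Ighg2c* were the most alike, at 86.4% identity over 1111 aligned bases, and the other 5 pairs were at 74.2% to 76.8%. Their longest common run has 78 bases, in exon 3 of both genes (chr12:113306869-113306946 for *Ighg2b* and chr12:113287869-113287946 for *Ighg2c*, minus strand), and is shown because a read inside it cannot be assigned to 1 of them.
Ighg2b and Ighg2c, shared run: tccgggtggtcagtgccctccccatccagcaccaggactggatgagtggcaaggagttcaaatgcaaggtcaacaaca
Of the windows of 50 bases, 5.26% of those of *Ighg2b* and 5.27% of those of *Ighg2c* occurred in the other gene, and no window of 100 bases did. No window of 50 bases was shared between other genes of the set. Values of *Ighg2b* and *Ighg2c* of up to 100 implied reads were whole multiples of 1 read in 7 of 8 and 7 of 9 cases within a tolerance of 0.02 reads, and those of the other genes with such values in all cases. The split between *Ighg2b* and *Ighg2c* is therefore uncertain to the extent that such reads were divided.

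The leading IgG subclass differed from leg to leg in the HRS group. Shares are of the implied reads of the 4 IgG genes, with exact binomial intervals at 95% that cover counting error only; they differed from shares per kb by at most 0.681 percentage points. In m862 *Ighg2c* took 82.99% (82.6% to 83.4%) of 41003 IgG reads. In m864 *Ighg2c* took 48.8% (47.9% to 49.7%) and *Ighg2b* 42.4% (41.6% to 43.3%) of 12142 reads. These 2 legs were led by *Ighg2c*, and the other 3 HRS legs were not.

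In m865 *Ighg2b* took 42.1% (41.1% to 43.2%) and *Ighg3* 37.7% (36.7% to 38.7%) of 8972 reads. In m866 *Ighg2b* took 43.6% (42.2% to 45%) and *Ighg1* 35.5% (34.2% to 36.8%) of 5105 reads. In m863 the 4 subclasses were nearly even, with *Ighg1* at 28.8% (27.6% to 30.1%) and *Ighg2c* at 22.7% (21.5% to 23.9%) of 5095 reads. These differences between legs exceed counting error by far, and each rests on 1 library per mouse. Over the 5 HRS legs *Ighg1* ranged from 1.74% to 35.5% of IgG reads and *Ighg2c* from 10.5% to 82.99%.

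**Figure D4:**
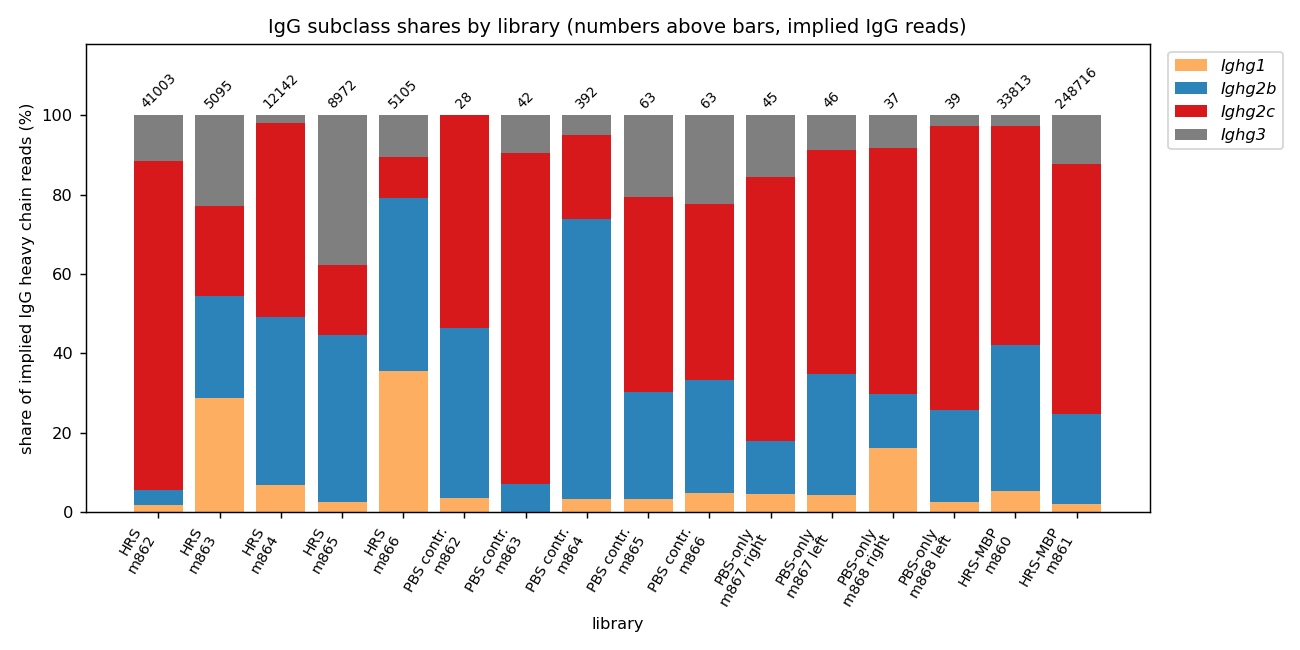
Shares of *Ighg1*, *Ighg2b*, *Ighg2c* and *Ighg3* in the implied IgG heavy chain reads of each library (vertical axis, %), with the number of IgG reads above each bar. *Ighg2c* takes 82.99% in the HRS leg of m862 and 10.5% in that of m866, and PBS legs other than the contralateral leg of m864 rest on 28 to 63 reads.

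In PBS legs the IgG reads were few, from 28 to 63 in 8 of the 9 libraries, and *Ighg2c* led in each of these 8. The contralateral leg of m862 had 28 IgG reads, of which *Ighg2c* took 53.6% (33.9% to 72.5%). The contralateral leg of m864 was the exception, with 392 IgG reads and *Ighg2b* at 70.7% (65.9% to 75.1%).

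The contralateral leg of m864 stood above the other contralateral legs in *Ighg1*, *Ighg2b*, *Ighg2c*, *Ighg3*, *Igha*, *Igkc*, *Jchain* and *Ighm*, and below them in *Ighd*. Its *Ighg2b* share of 70.7% differed from the 42.4% of the HRS leg of the same mouse, and its *Ighg2c* share of 21.2% (17.2% to 25.6%) from the 48.8% there, both beyond counting error. The summed mature B cell genes in this leg were 29.5, within the 25.3 to 52.0 of the contralateral group, most of it *Ebf1*, a transcription factor that other cells carry too. Of the 15 listed genes 1 was highest in this leg, *Cd79a*, at 0.693 against 0.215 to 0.280 in the other 4 contralateral legs. The leg's sums were the highest of the group for T cell markers (3.37), macrophage markers (273.7, others 99.16 to 247), neutrophil markers (1.06, others 0.16 to 0.559) and lymph node stroma genes (14.6). Their part in the result was not tested.

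Contralateral and PBS-only legs were compared to ask whether the PBS-injected side of an immunized mouse differs from muscle of a mouse without antigen. None of the 9 genes was called (limma), against 0.00609% of all genes, and none was called by limma-voom. None had an unadjusted p under 0.05 by limma, against 902 of all 16414 genes tested. The nearest were *Igkc*, with a log2 difference of 0.92 (95% interval -0.43 to 2.27; limma, adjusted p = 0.987), and *Jchain*, with 0.76 (-0.44 to 1.95; limma, adjusted p = 0.991). The interval for *Igkc* runs from 0.741 to 4.84 times the PBS-only level. For *Ighm* the difference was -0.16 (-1.14 to 0.82; limma, adjusted p = 1).

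The HRS-MBP library of m861 held the highest level of each of the 9 genes, while that of m860 lay below the highest HRS leg for *Ighg2c*, *Ighg1*, *Ighg3* and *Ighd*. In m860 and m861 *Ighm* was at 421.6 and 3374, *Igkc* at 531 and 3434, and *Jchain* at 75.9 and 600. *Ighg2c* was at 381 and 3477, *Ighg2b* at 253 and 1259, *Ighg1* at 37.2 and 114, and *Ighg3* at 17.7 and 681. *Igha* was at 21.4 and 64.2 and *Ighd* at 3.10 and 4.94. The library of m861 was above that of m860 for each gene, from 1.59-fold for *Ighd* to 38.4-fold for *Ighg3*.

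All 9 genes were called higher in HRS-MBP libraries than in PBS-only legs, against 20.7% of all genes, with log2 fold changes from 2.16 ± 0.483 for *Ighd* (limma, adjusted p = 0.00196) to 9.20 ± 1.03 for *Ighg2b* (limma, adjusted p = 7.52e-06). Over the pseudocounts tried the fold was 229 to 988 for *Ighg2b*, 325 to 720 for *Ighg2c*, 52.9 to 362 for *Ighg3*, 30.4 to 234 for *Ighg1*, 19.4 to 253 for *Igha*, 348 to 687 for *Igkc*, 84.4 to 323 for *Jchain*, 2.38 to 6.66 for *Ighd* and 17.5 to 17.9 for *Ighm*. Without m861 all 9 were still called, at 1.86 to 8.04, and without m860 at 2.45 to 10.8, with the lone library assumed to vary like those of the other groups. Markers of other cells differed between these groups too: macrophage markers summed to 3922 to 4281 in HRS-MBP libraries and 100.7 to 211.3 in PBS-only legs, T cell markers to 105.3 to 145.6 and 1.25 to 2.31, mature B cell genes to 141.1 to 204.2 and 20.9 to 30.8, and skeletal muscle markers to 77220 to 77720 and 177700 to 216600. Their part in the result was not tested. Both HRS-MBP libraries were above every PBS-only leg for all 9 genes, against 39.8% of all genes tested. Against HRS legs 1 of the 9 genes was called higher, *Ighm*, against 0.396% of all genes, with a log2 fold change of 2.73 ± 0.574 (limma, adjusted p = 0.0495, n = 2 and 5). All 9 had an unadjusted p under 0.05 by limma, against 2371 of all 16414 genes tested, and 5 did not overlap between these groups, against 7.1% of all genes. *Ighm* was called under 13 of 31 alternatives, and its log2 fold change was 1.23 without m861 (limma, adjusted p = 0.999) and 4.23 without m860 (limma, adjusted p = 0.000138). The count of 1 gene called moved between 0 and 8 with the settings, and calls over all genes moved too, from 65 of 16414 higher in the main fit. The count was 7 without the HRS leg of m864 (521 of 16362 genes higher) and 4 without that of m866 (99 of 16432). It was 2 without the contralateral leg of m864 (54 of 16393) and 1 (*Ighg2c* in place of *Ighm*) without the HRS leg of m862 (45 of 16398). It was 0 when any 1 of the other HRS, contralateral or PBS-only legs was left out. With m861 left out, *Ighg3* was lower than in HRS legs by 0.231 on the log2 scale (limma, adjusted p = 0.999).

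The shares of *Ighm* and of the IgG genes together lay close in the HRS-MBP libraries, while those of several single isotypes differed. *Ighm* made up 30.5% and 30.9% of heavy chain RNA per kb in m860 and m861, and IgG genes 67.0% and 68.2%. Both lay within the range of the HRS legs. *Ighg2c* was at 37.0% and 42.8% of heavy chain RNA per kb in m860 and m861, *Ighg3* at 1.77% and 8.60%, *Ighg2b* at 24.5% and 15.4%, *Ighg1* at 3.73% and 1.45%, and *Igha* at 2.10% and 0.797%. *Ighg2c* led in both, at 55.3% (54.8% to 55.9%) of 33813 IgG reads in m860 and 62.9% (62.7% to 63.1%) of 248716 in m861. *Jchain* over *Ighm* was 0.180 and 0.178 in normalized counts, within the 0.112 to 0.233 of the HRS legs. The labels of these libraries conflict on antigen and dose, so that antigen form, dose and animal cannot be told apart here.

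**Figure D5:**
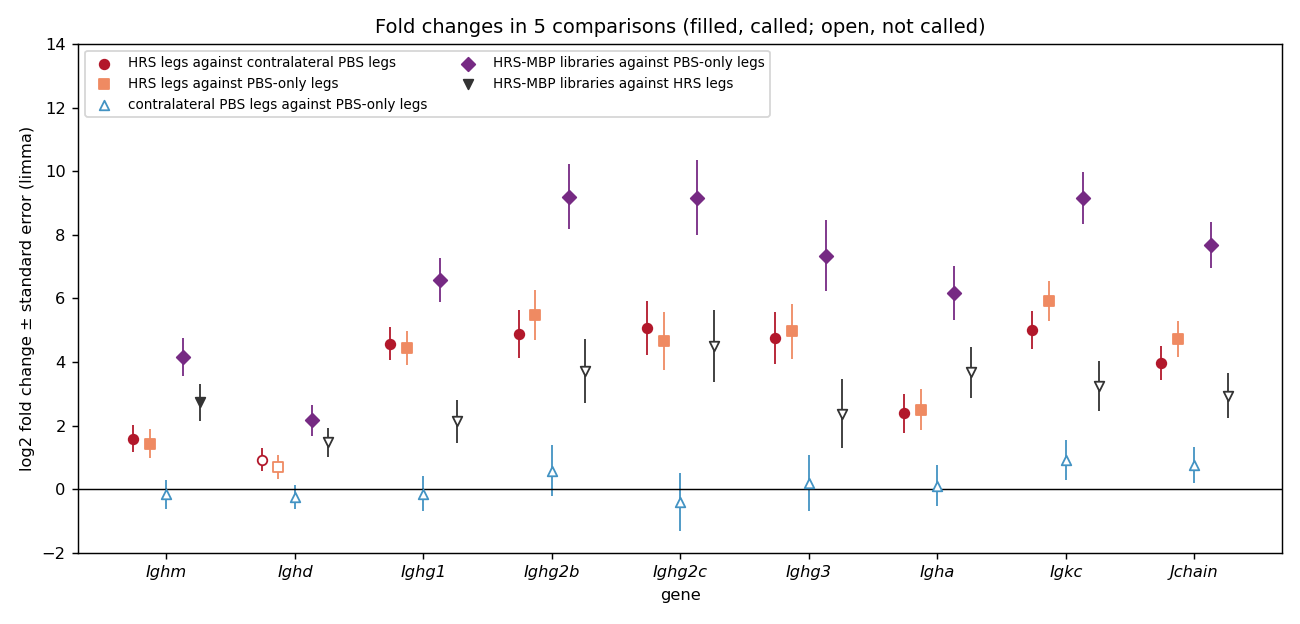
Log2 fold changes with standard errors (vertical axis, limma, log2(normalized count + 0.5)) of the 9 genes in 5 comparisons; filled symbols were called and open ones were not. Contralateral against PBS-only legs lies between -0.39 and 0.92, HRS legs lie at 1.43 and above for every gene except *Ighd*, and HRS-MBP libraries against PBS-only legs lie highest.

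*Igkc* and *Jchain* varied together, with a Pearson correlation of 0.996 over the 16 libraries on the log2 scale. This and the following values are descriptions: all genes share the libraries, their depth and the difference between the groups. Outside the immunoglobulin families, the genes most like *Ighm* were *Mzb1*, a chaperone gene of antibody-secreting cells (r = 0.953), *St8sia6* (0.952) and *Derl3* (0.948). *Ighd* was most like *Pax5*, the transcription factor of the B cell lineage (0.964), followed by *Il12rb2* (0.958) and *Sdc4* (0.95). For *Ighg2c* they were *Pou2af1*, a transcriptional coactivator of B cells (0.975), *Cd300e* (0.965) and *Slpi* (0.952), and for *Ighg1* *Gm15987* (0.970), *Gm12185* (0.967) and *Irgm2* (0.963).

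*Ighg2b* and *Ighg3* were most like *Jchain* (0.967 and 0.956). *Ighg2b* was followed by *Lax1* (0.960) and *Xdh* (0.945), and *Ighg3* by *Creld2* (0.926) and *Pou2af1* (0.913). For *Igha* the nearest were *Tigit* (0.975), *Cd79a* (0.974) and *Pax5* (0.974). For *Igkc*, *Fpr1* (0.954) and *Casp4* (0.951) came after *Jchain*, and for *Jchain* they were *Slc17a9* (0.948), *Lax1* (0.945) and *Pou2af1* (0.943).

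Lambda light chain RNA, like kappa, was higher in HRS legs than in contralateral legs, but the HRS legs had a different order. *Iglc1*, *Iglc2* and *Iglc3* summed to 3.30 to 10.7 normalized counts in HRS legs, 0.0961 to 0.554 in contralateral legs and 0 to 0.687 in PBS-only legs, and to 17.5 and 110.7 in HRS-MBP libraries. All 3 had PBS means under the filter and were called higher in HRS than in contralateral legs (limma), and *Iglc2* had a log2 fold change of 2.23 (limma, adjusted p = 0.00277). *Igkc* over this sum was 83.6 in the HRS leg of m862, the leg dominated by *Ighg2c*, against 15.5 to 25.4 in the other 4 HRS legs and 30.4 and 31.0 in HRS-MBP libraries. In contralateral legs it was 9.33 to 43, on few lambda reads, and in PBS-only legs the lambda genes were listed at 0 in 3 of the 4 libraries. The lambda sum was highest in the HRS leg of m866 (10.7), while *Igkc* was highest in that of m862, where the lambda sum was 3.93.

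Signals for class switching were followed in lists of their genes, beside the 16.9% of all genes called higher in HRS than in contralateral legs. A gene whose mean over the 9 PBS legs is under 0.5 passed the filter only through HRS or HRS-MBP libraries, so that such counts are descriptions. Of the switch cytokines and T cell help genes, 9 of the 15 listed were tested and the 9 were called higher (limma), 4 of them with PBS means under the filter. *Cd40*, the receptor on B cells for help from T cells, had a log2 fold change of 3.17 (limma, adjusted p = 3.61e-06), *Icosl* of 1.43 (limma, adjusted p = 8.18e-05) and *Ifng* of 1.89 (limma, adjusted p = 0.000744). *Ifng* was at 0.349 to 5.30 in HRS legs and listed at 0 in all 5 contralateral legs. *Il4* was not tested, at 0 to 0.0893 in HRS legs and 0 to 0.115 in contralateral legs, and *Il21* was at 0.0534 to 1.73 and 0 to 0.0269.

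Of the genes for receiving such signals, 7 of 12 tested were called higher (3 of the 12 with PBS means under the filter), and *Il21r*, the IL-21 receptor, had the highest log2 fold change, 4.02 (limma, adjusted p = 4.42e-06). *Ifngr2*, a chain of the IFN-γ receptor, had the lowest, -0.48 (limma, adjusted p = 0.00739). Of the class switch and hypermutation machinery, 1 of 15 genes tested was called higher, *Exo1*, an exonuclease of mismatch repair (1.28; limma, adjusted p = 0.000446), which was at most 0.256 in PBS legs and was the 1 gene of the list with a PBS mean under the filter, and the median was -0.25. *Xrcc5*, which encodes the Ku80 protein of DNA end joining, was lower by 0.92 (limma, adjusted p = 0.00161; -0.92 on the log2 scale), below the fold threshold.

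Genes of the plasma cell secretion program were called higher for 9 of 14 tested, of which 4 had PBS means under the filter. *Slamf7*, a surface receptor of plasma cells that other immune cells carry too, had a log2 fold change of 4.09 (limma, adjusted p = 2.87e-06), and *Prdm1*, the regulator of plasma cell fate also used by T cells, of 1.93 (limma, adjusted p = 9.49e-05). *Xbp1*, the secretory stress factor, was at 91.4 to 120 in HRS legs and 103 to 135 in contralateral legs (-0.07; limma, adjusted p = 0.644). Of the mature B cell and B cell receptor genes, 8 of 11 tested were called higher and 8 of the 11 had PBS means under the filter, with *Cd22* at 3.37 (limma, adjusted p = 4.41e-05), the B cell receptor chain gene *Cd79a* at 1.28 (limma, adjusted p = 0.0124) and *Bank1* at 0.21 (limma, adjusted p = 0.524). The summed list was at 43.9 to 155.4 in HRS legs and 25.3 to 52.0 in contralateral legs, and the HRS leg of m866 lay below its own contralateral leg.

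Receptors for antibodies were called higher for 6 of 7 tested. *Fcgr4*, an activating Fc receptor for IgG2 subclasses on myeloid cells, had a log2 fold change of 4.77 (limma, adjusted p = 1.16e-06), and *Fcgrt*, the neonatal Fc receptor that recycles IgG, of 0.15 (limma, adjusted p = 0.360). *Pigr*, the transporter of polymeric antibodies, was at 0 to 0.13 in HRS legs and was not tested.

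Markers of other cells differed between HRS and contralateral legs too. Against contralateral legs, T cell markers were called higher for 7 of 7 tested (5 with PBS means under the filter), macrophage markers for 6 of 6 (0 under it), neutrophil markers for 4 of 4 (all 4 under it) and mast cell and basophil markers for 1 of 5 tested, and skeletal muscle markers lower for 5 of 10, against 6.27% of all genes called lower (limma). Of the lymph node stroma and high endothelial venule genes 4 of 9 passed the filter, 2 of them with PBS means under it, and the 4 were called higher, with sums of 35.2 to 80.1 in HRS legs and 3.92 to 14.6 in contralateral legs. The venule genes *Glycam1* and *Madcam1* were listed at 0 in 9 of the 16 libraries each and *Chst4* in 14, and the highest *Glycam1* value was 1.64 normalized counts. Whether any of these cells has a part in the immunoglobulin levels was not tested.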

How the data were processed

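The authors deposited 1 table of normalized counts, a library-scaled signal that is not log-transformed, for 26382 genes in 16 libraries; totals were 726797 to 1252358. The submitters' processing notes name STAR 2.7.8a, limma and mm39; the scaling method and the use of strand in counting are not given in the sources used here. Positions matched GENCODE M21 (GRCm38) for 99.0% of 25652 genes paired by symbol and chromosome, and were used with that build.

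The members and gene lists were chosen with earlier results of these data known. Values were tested as log2(normalized count + 0.5) in 1 limma 3.58.1 fit of 4 groups (R 4.3.3, mean trend), for the 16414 genes whose mean over 16 libraries reached 0.5. Genes were called at a Benjamini-Hochberg adjusted p under 0.05 and a log2 fold change beyond 1 in either direction. The fit was tested on simulated data. Between replicates, p-values measure the spread between legs.

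The commonest smallest value of a library was taken as the worth of 1 read. Only 75.3% to 77.7% of low values (up to 20 reads) were whole multiples within 0.02 reads, so the values were not turned back into reads for a count model; implied reads serve for shares and depth. Per-kb values use the secreted GENCODE transcript (532 bases for *Igkc*, 1493 for *Ighm*).

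Named genes were the members, the 3 genes most correlated with each and, per list, those with the highest and lowest log2 fold change and defining genes fixed in the design. Values of 2 genes under that rule are not reported here. Pairing of legs comes from the mouse in the labels; deviations of paired legs correlated at 0.119, 0.163, 0.0972, -0.0256 and -0.366 for m862 to m866. Alternatives covered pseudocount, filter, scaling, model, the mouse block and single libraries.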

Additional observations from a re-analysis of the deposited data

Results flagged for a closer look

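Of 51 sets of values examined (a gene or ratio in a group of 4 or 5 libraries), 7 had 1 library far from the others; chance gives about 1 in 20. Values are log2(normalized count + 0.5). In the contralateral leg of m864, *Ighg1* was at 0.138 (others -1 to -0.784), *Ighg2b* at 3.73 (others -0.864 to -7.5e-05), *Ighg2c* at 2.12 (others -0.0281 to 0.497) and *Igha* at -0.28 (others -1 to -0.918). The 4 values come from the same library.

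Among PBS-only legs, the right leg of m868 was high in *Ighg1* at 0.296 (others -0.845 to -0.784), which is 6 implied reads in the shallowest library. The log2 ratio *Ighg3*/*Ighm* of the same leg was -6.82 (others -8.32 to -8.19), on 3 implied reads of *Ighg3*. The right leg of m867 was low in *Ighg2b* at -0.577 (others 0.0923 to 0.146), on 6 implied reads.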

How the results depend on the processing

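Counts of members called against contralateral PBS legs were 8 or 9 under all alternatives run, 7 to 9 for HRS against PBS-only legs, 8 or 9 for HRS-MBP against PBS-only legs and 0 for contralateral against PBS-only legs. With the mouse as a replicate block, random or fixed, 8 members were called in HRS against contralateral legs, and the block changed no other count of calls (random block: 8, 0, 9 and 1). With the legs paired, 0 of 8 isotype ratios passed by the exact sign-flip test over 5 mice, which cannot go below 0.0625, and with PBS-only legs averaged per mouse 0 of 8 passed, since 0.0952 is then the smallest p. Leaving out single libraries gave 5 to 6 ratios against contralateral and 4 to 6 against PBS-only legs.

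For HRS-MBP against HRS legs, where 1 member was called, the count was 0 with the smallest pseudocount, a filter at a mean of 2, no mean trend, the 2 groups alone or PBS-only legs averaged, 2 with a pseudocount of 1 or quantile normalization, 5 with a pseudocount of 2 or limma-voom, and 8 with array weights. Of all 16414 genes, 538 were called higher with array weights, 65 with a pseudocount of 2 and 60 with limma-voom, against 65 in the main fit. Leaving out single libraries other than m860 and m861 gave 0 to 7 members. The cause was not tested.

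Directions turned for differences that were not called, or for ratios with p above 0.05 by the exact permutation test, in the main setting. Leaving out single libraries, contralateral against PBS-only legs gave -0.214 (without the contralateral leg of m864) to 0.935 for *Ighg2b*, -0.0112 (the same) to 0.354 for *Ighg3*, -0.0346 (the same) to 0.145 for *Igha*, and -0.345 to 0.138 (without the right leg of m868) for *Ighg1*. *Ighg3* in HRS-MBP against HRS legs was -0.231 without m861 and 4.99 without m860. Against contralateral legs, *Ighg2c*/*Ighg1* was 0.486 with 0.5 added and -1.6 to 0.229 (without HRS m866) without single libraries, and *Ighg2b*/*Ighg1* was 0.318 with 0.5 added and -1.09 to 0.0522 (without contralateral m864). Against PBS-only legs, *Ighg2c*/*Ighg1* was 0.232 with 0.5 added and -1.79 to 0.0376 (without HRS m866), and *Ighg2b*/*Ighg1* was -0.0344 with 0.02 added, -0.163 without HRS m865 and -0.00972 without the right leg of m868. *Ighg2b*/*Ighg1* was at most 0.873 without single libraries and at most 1.04 over all alternatives.

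Over all genes tested, the median of HRS against contralateral legs went from 0.08 to 0.45 (log2) on scaling to the same total and quantile normalization to -0.16; higher calls were 2781 of 3810, then 4179 of 4503 and 2093 of 3725. The members' calls in that comparison were 8 or 9 under each. Low depth limits IgG shares in PBS legs, and the 4 PBS-only libraries come from 2 mice.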
